A study of Rattus norvegicus with 6 samples.

Results

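Transcripts of 4 genes of the endoplasmic reticulum (ER) stress response and the integrated stress response were followed in rat liver: Hspa5 (ENSRNOG00000018294), Atf4 (ENSRNOG00000017801), Atf3 (ENSRNOG00000003745) and Ddit3 (ENSRNOG00000006789). They were chosen by name and by Ensembl gene ID, with earlier results of these data known, and all 4 were found among the 43360 gene IDs of the count tables and among the 16898 IDs that passed the expression filter. The count tables carry IDs without symbols, and the symbols are those of the list of IDs. Reference tables that pair these IDs with symbols were not used here.

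Liver RNA was compared in 3 groups of male rats of the inbred Fischer-344 strain, in a model that induces liver injury over 16 weeks in the carcinogen-treated groups. HCC/NAC rats received diethylnitrosamine (DEN, 50 mg/kg weekly by intraperitoneal injection), then 2-acetylaminofluorene (2-AAF, 25 mg/kg by mouth), with N-acetylcysteine (NAC, 300 mg/kg by mouth daily). HCC rats received DEN and 2-AAF at the same doses without NAC. Control rats received the oral vehicle, 0.5% carboxymethyl cellulose, and neither carcinogen. DEN alkylates DNA after activation in the liver, 2-AAF is an aromatic amine liver carcinogen, the pair is used to induce hepatocellular carcinoma (HCC), and NAC supplies cysteine for glutathione. The design lists 18 rats, of which 5 per group gave RNA to pools, and 2 libraries stand for each group. No value therefore belongs to 1 animal. Whether the 2 pools of a group held different animals is not stated in the labels. The spread behind every p-value is that between the 2 pools of a group. In the reported fit it was estimated over all 3 groups and drew on other IDs, and it may be purely technical. The labels give the tissue as liver and do not say whether tumour was dissected. Its identity was not checked against marker genes because their IDs were not paired with symbols here.

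Secretory cells such as hepatocytes fold large amounts of protein in the ER. When unfolded protein accumulates there, the sensors PERK, IRE1 and ATF6 start the unfolded protein response. PERK phosphorylates the initiation factor eIF2 alpha, as do other kinases that sense amino acid shortage, haem shortage or viral RNA, and this shared branch is called the integrated stress response. General translation then slows, while the mRNA of ATF4 is translated more. ATF4 protein activates genes of amino acid supply and redox balance, and also Ddit3 and Atf3. Hspa5 encodes BiP (GRP78), the main Hsp70 chaperone of the ER and a classical target of ATF6 through ER stress response elements. Because ATF4 is controlled largely at translation, its mRNA count does not measure its protein.

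The promoter sequence of Hspa5 is shown because it holds the element through which the gene is classically induced. The window runs from 250 bases before to 50 bases after the RefSeq start of the gene at chr3:38452766-38453065 in GRCr8, plus strand, and the capitals mark a match to the ER stress response element (ERSE), which is CCAAT and CCACG with 9 free bases between them. The counting build is not given in the sources used here, so these coordinates belong to the RefSeq table alone.
Hspa5 promoter: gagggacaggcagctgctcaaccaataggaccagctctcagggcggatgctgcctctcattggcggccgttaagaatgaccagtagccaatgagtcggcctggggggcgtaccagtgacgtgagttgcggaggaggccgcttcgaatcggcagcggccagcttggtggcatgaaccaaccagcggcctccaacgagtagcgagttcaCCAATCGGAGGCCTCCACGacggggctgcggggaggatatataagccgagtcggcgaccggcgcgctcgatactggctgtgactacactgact

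The match lies 43 to 25 bases before the start, and 0.0657% of the 33469 RefSeq promoter windows of 300 bases hold this element on either strand. The Hspa5 window held 4 copies of CCAAT on either strand, 1 of them inside the ERSE, and 37.5% of windows hold at least 1. The Ddit3 window (chr7:65001445-65001744, GRCr8, plus strand) held no full ERSE, but on the minus strand it held a sequence with 1 of the 10 fixed letters different, 90 to 72 bases before the start. Allowing 1 difference, a search added after the sequences had been seen, 1.41% of windows hold a match. The 2 elements are set below each other 5′ to 3′ on their own strand, with the fixed letters in capitals.
Hspa5 element: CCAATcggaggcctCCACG
Ddit3 element: CCAATcagaaagcgGCACG

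The Atf4 window matched none of the motifs searched. Neither the Hspa5 nor the Ddit3 window held the ATF4 response element (TTGCATCA, also searched as ATTGCATCA; 0.795% and 0.188% of windows), the cAMP response element (TGACGTCA; 1.83%) or the ATF6 site (TGACGTGG; 0.595%), each searched on both strands. A match is a description of these letters, and no match says only that they are not in this window. No promoter was printed for Atf3.

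Levels are given as CPM, the count divided by the library size after scaling with edgeR's TMM method, for comparison of 1 gene across libraries. Library totals ranged from 33917707 to 37717373 counts. A gene was said to rise or fall only at a Benjamini-Hochberg adjusted p under 0.05 from edgeR's quasi-likelihood test, fitted to all 6 libraries and adjusted over all 16898 IDs. The TMM factors were 0.920 and 0.915 in HCC/NAC, 1.19 and 1.18 in HCC and 0.920 and 0.914 in control libraries, so HCC values in particular depend on this scaling. The names of the control files begin with other letters than those of the 4 files from carcinogen-treated livers. What the letters stand for is not stated, and anything they mark cannot be told apart from carcinogen treatment. Both comparisons with control use the same control libraries, and their values are given side by side.

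**Figure D1:**
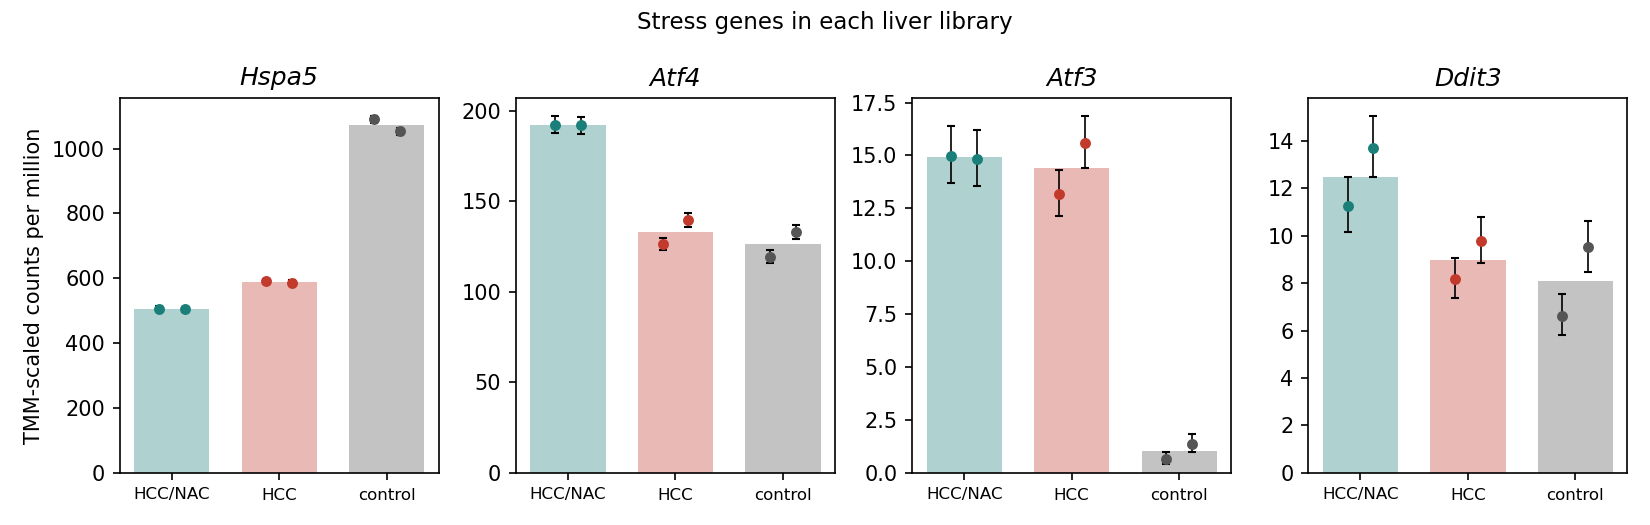
TMM-scaled CPM (y axis, linear from 0) of Hspa5, Atf4, Atf3 and Ddit3 in HCC/NAC, HCC and control livers. Bars are means of 2 libraries, and points are libraries (replicate 1 left, replicate 2 right). Whiskers are exact Poisson intervals at 95% that treat every read as independent, cover no spread between pools and may be too narrow. Hspa5 is lowest in HCC/NAC and highest in control, Atf4 is highest in HCC/NAC, and Atf3 is near 1 CPM in control alone.

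In HCC against control livers, Atf3 rose 14.2-fold and Hspa5 fell to 0.550 of its control level, while Atf4 and Ddit3 had no call. Thus 1 of the 4 genes rose and 1 fell. Over all tested IDs 34.8% were called, 17% higher and 17.8% lower, so calls for 2 of 4 genes lie near the background. The median log2 fold change of the 4 was 0.12, beside 0.05 over all tested IDs.

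In HCC/NAC against control livers, 3 of the 4 genes rose and 1 fell: Atf3 by 14.7-fold, Atf4 by 1.52-fold and Ddit3 by 1.55-fold upward, and Hspa5 to 0.471 of control. Over all tested IDs 46.2% were called, 21.3% higher and 24.9% lower. The median log2 fold change of the 4 was 0.62, beside 0.05 over all tested IDs. No comparison moved all 4 genes in 1 direction.

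In HCC/NAC against HCC livers, Atf4 rose 1.44-fold and Hspa5 fell to 0.857, while Atf3 and Ddit3 had no call. Over all tested IDs 27.7% were called, 11.2% higher and 16.5% lower. The median log2 fold change of the 4 was 0.26, beside -0.05 over all tested IDs.

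**Figure D2:**
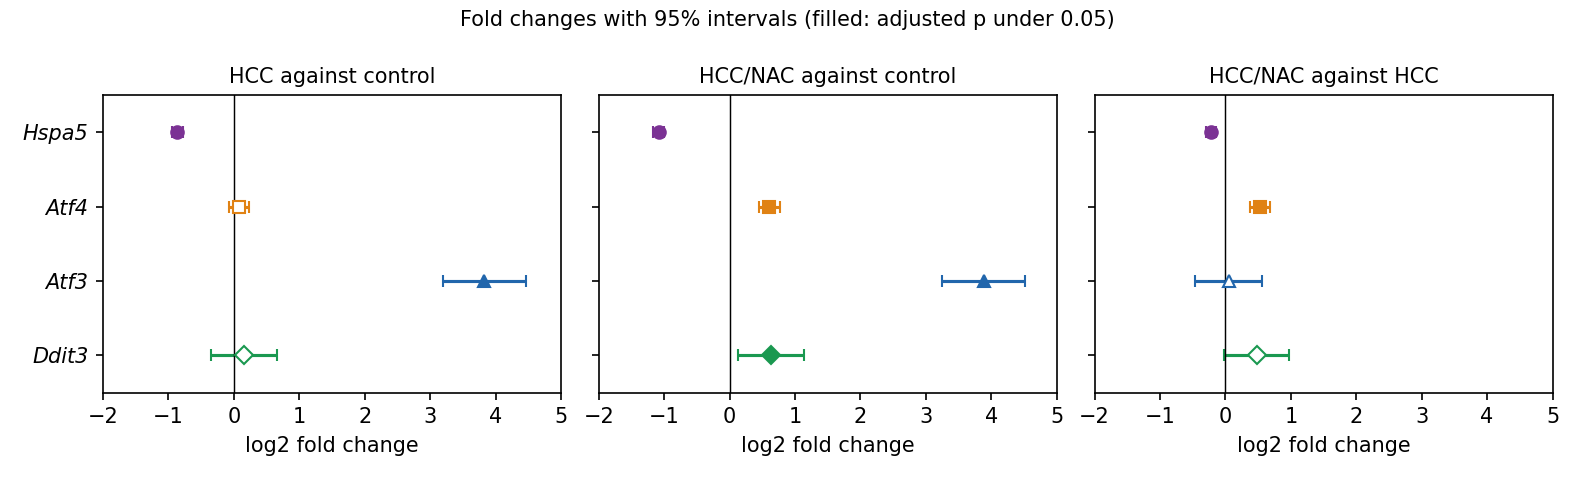
Log2 fold changes (x axis) of the 4 genes (y axis) in HCC against control, HCC/NAC against control and HCC/NAC against HCC livers, with 95% intervals from edgeR's quasi-likelihood fit. Filled symbols passed an adjusted p of 0.05. The Atf3 interval runs from 3.19 to 4.47 in HCC against control and spans 0 in HCC/NAC against HCC.

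Hspa5 encodes the chaperone BiP, which binds unfolded proteins in the ER and holds the stress sensors inactive. It was by far the most counted of the 4. Its level was 506 and 505 CPM in HCC/NAC livers, 592 and 586 CPM in HCC livers and 1089.8 and 1054 CPM in control livers. The 3 groups did not overlap, and the replicates of each differed by less than 1.04-fold. In bulk liver, less Hspa5 RNA per cell and fewer cells that express it cannot be told apart.

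Hspa5 fell in HCC livers by 0.86 on the log2 scale (SE 0.038, 95% interval -0.95 to -0.78, adjusted p = 3.47e-09, edgeR). In HCC/NAC livers it fell by 1.09 against control (SE 0.038, adjusted p = 5.45e-10, edgeR). With NAC it thus lay further from control than in HCC livers, by -0.22 on the log2 scale (SE 0.038, 95% interval -0.30 to -0.14, adjusted p = 0.000886, edgeR). In that comparison 75.0% of tested IDs had a larger difference in either direction.

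Hspa5 ranked 178 and 176 from the top among the tested IDs in HCC/NAC libraries, 136 and 142 in HCC libraries and 115 in both control libraries. The gene therefore stayed among the abundant transcripts of every library. It took 0.0465% and 0.0462% of all counts in HCC/NAC, 0.0707% and 0.0693% in HCC and 0.1003% and 0.0962% in control libraries. These shares amount to scaling by library totals alone, and they kept the order of the groups.

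The size of the NAC step depended on scaling and filtering. Over all alternatives it ran from -0.59 to -0.13 on the log2 scale, beside -0.22 as reported. With library totals alone, a setting chosen after seeing the data, Hspa5 changed by -0.49 in HCC against control (adjusted p = 7.18e-07, edgeR) and by -0.59 in HCC/NAC against HCC (adjusted p = 2.45e-07, edgeR). The median of all tested IDs then moved to 0.43 and -0.42. Relative to these medians the changes were -0.91 and -0.17.

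Atf4 encodes the transcription factor that the integrated stress response raises through translation. Its level was 192 CPM in both HCC/NAC libraries, 126 and 140 CPM in HCC and 119 and 133 CPM in control libraries. The HCC/NAC libraries lay above all others, and the HCC and control libraries overlapped. Atf4 rose in HCC/NAC against HCC livers by 0.53 on the log2 scale (SE 0.072, adjusted p = 0.000166, edgeR) and against control by 0.61 (SE 0.072, adjusted p = 2.52e-05, edgeR).

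Between HCC and control livers the log2 fold change of Atf4 was 0.08 (SE 0.072, adjusted p = 0.458, edgeR), with a 95% interval of the fold from 0.945 to 1.18. This result rests on scaling. With library totals alone Atf4 was higher in HCC than in control by 0.45 (adjusted p = 0.000265, edgeR), and its difference between HCC/NAC and HCC was 0.16 with no call (adjusted p = 0.0934, edgeR). Relative to the medians of all IDs under that scaling, these differences were 0.03 and 0.58. In a fit limited to IDs averaging 10 CPM or more, Atf4 was also called higher in HCC than in control, by 0.20 (adjusted p = 0.0175, edgeR). The share of all counts is again scaling by library totals alone. It was 0.0177% and 0.0175% in HCC/NAC, 0.0151% and 0.0165% in HCC and 0.0110% and 0.0121% in control libraries. On that measure the 3 groups did not overlap.

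Atf3 encodes a stress-inducible factor of the ATF/CREB family, also known in rat as liver regenerating factor LRF-1, which is low in resting liver. It had 498 and 482 counts in HCC/NAC, 594 and 625 in HCC and 23 and 45 in control libraries. Scaled, this was 15.0 and 14.8 CPM in HCC/NAC, 13.2 and 15.6 CPM in HCC and 0.666 and 1.36 CPM in control livers. All 4 carcinogen-treated libraries lay far above both controls, and the TMM-scaled HCC/NAC values lay within the range of the HCC values. By library totals alone Atf3 was at 13.8 and 13.6 CPM in HCC/NAC and 15.7 and 18.4 CPM in HCC libraries. HCC/NAC then lay below HCC, by -0.32 on the log2 scale with no call (adjusted p = 0.320, edgeR). Relative to the median of all IDs this was 0.10.

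Atf3 rose in HCC against control livers by 3.83 on the log2 scale (SE 0.29, adjusted p = 5.75e-07, edgeR), a 95% interval of 9.14-fold to 22.1-fold. In HCC/NAC livers it rose by 3.88 (SE 0.29, adjusted p = 4.59e-07, edgeR). Of all tested IDs, 5.36% had a larger rise in HCC and 5.04% a larger one in HCC/NAC livers. Between HCC/NAC and HCC the log2 fold change was 0.05 (SE 0.23, adjusted p = 0.912, edgeR), and the 95% interval of the fold ran from 0.726 to 1.48 in this fit.

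**Figure D3:**
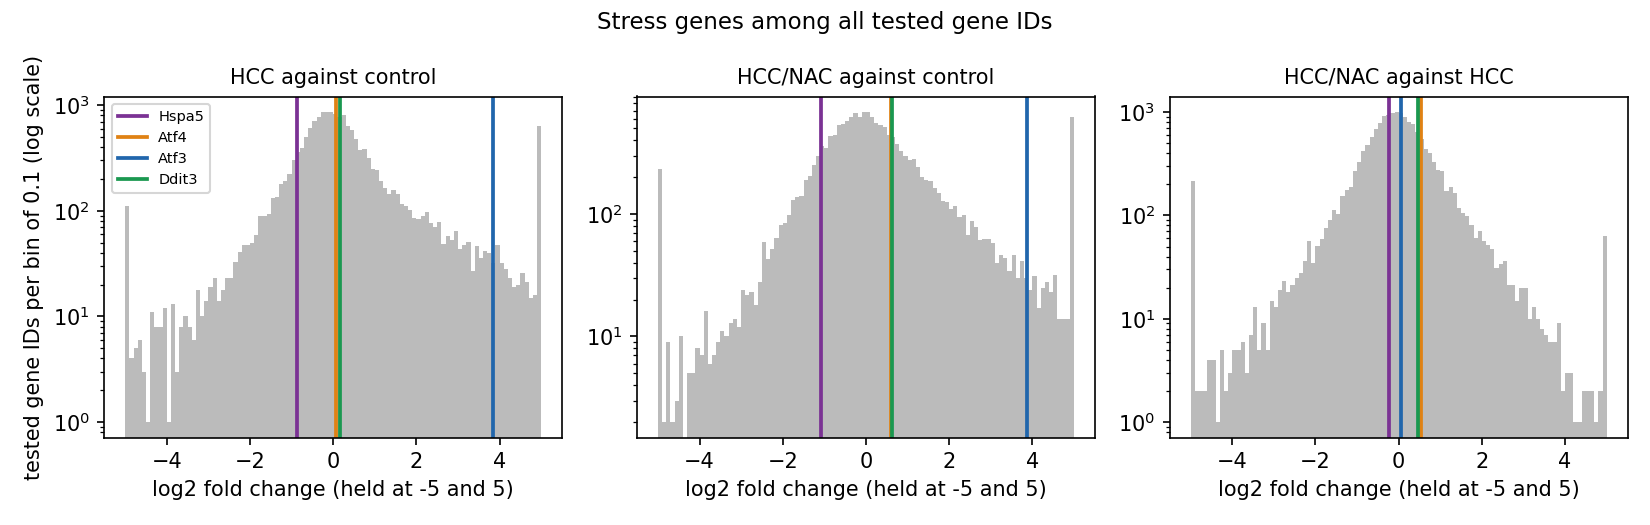
Histograms of the log2 fold changes of all 16898 tested gene IDs (x axis, values beyond -5 and 5 held there; y axis, IDs per bin, log scale) for the 3 comparisons, with coloured lines at Hspa5, Atf4, Atf3 and Ddit3. Atf3 stands in the upper tail in both comparisons with control, at 3.83 and 3.88, and near the centre in HCC/NAC against HCC.

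The control level of Atf3 was the least precise value of the 4 genes. Its replicates differed 2.04-fold, and among the 1407 IDs within 1.5-fold of its control level the median replicate ratio was 1.64 and 34.5% of IDs differed by more. Low counts also dropped out unevenly between libraries. Where the partner library had 20 to 50 counts, 13.4% and 10.9% of IDs were at 0 in HCC/NAC, 0.115% and 0.460% in HCC and 11.5% and 2.95% in control libraries, and the part of this in the Atf3 result was not tested beyond the settings that follow. The size of the rise in HCC was 3.399 without control replicate 1 and 4.49 without control replicate 2 on the log2 scale, a fold that moves by over 1.5 times. It was called under both (adjusted p = 4.18e-06 and 9.83e-07, edgeR). The rise in HCC/NAC moved in the same way, to 3.43 without control replicate 1 and 4.55 without control replicate 2, and was also called under both. Dividing each library by an estimated number of reads per molecule, likewise chosen after seeing the data, gave 3.82 (adjusted p = 1.14e-20, edgeR). By that estimate Atf3 had 1.46 and 4.98 molecules in control, 110 and 117 in HCC and 30.0 and 33.4 in HCC/NAC libraries. These numbers are not scaled between libraries and do not compare the groups. The estimated reads per molecule were 5.39 and 5.32 in HCC but 16.6 and 14.4 in HCC/NAC libraries. After scaling of the divided counts, Atf3 in HCC/NAC against HCC was 0.12 with no call (adjusted p = 0.673, edgeR). If the estimate holds, the size of the rise rests on very few control molecules. The estimate takes every count of 0 as a molecule missed in sampling, and the counts carry no molecular identifiers to check it.

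Ddit3 encodes CHOP, a C/EBP-family factor that promotes cell death under lasting ER stress. It had 374 and 446 counts in HCC/NAC, 369 and 392 in HCC and 229 and 315 in control libraries. Scaled, this was 11.3 and 13.7 CPM in HCC/NAC, 8.19 and 9.78 CPM in HCC and 6.63 and 9.51 CPM in control livers. On this scale HCC and control libraries overlapped, and both HCC/NAC libraries lay above them. By library totals alone the CPM was 10.4 and 12.6 in HCC/NAC, 9.78 and 11.6 in HCC and 6.10 and 8.69 in control. HCC then lay above control and overlapped HCC/NAC. The log2 fold changes were then 0.53 in HCC against control (adjusted p = 0.0837, edgeR) and 0.10 in HCC/NAC against HCC (adjusted p = 0.780, edgeR). Relative to the medians of all IDs they were 0.10 and 0.53.

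In HCC/NAC against control livers Ddit3 rose by 0.63 on the log2 scale (SE 0.23, 95% interval 0.13 to 1.13, adjusted p = 0.0405, edgeR). The call was lost in 5 of 16 alternatives, among them the fits without control replicate 1 (0.37, adjusted p = 0.258, edgeR), without HCC/NAC replicate 2 (0.46, adjusted p = 0.174, edgeR) and without either HCC replicate (0.61 in both, adjusted p = 0.0589 without replicate 1 and 0.0614 without replicate 2, edgeR). In HCC against control livers the log2 fold change was 0.15 (SE 0.23, adjusted p = 0.646, edgeR), with a 95% interval of the fold from 0.788 to 1.57. In HCC/NAC against HCC livers it was 0.48 (SE 0.23, adjusted p = 0.148, edgeR), with a 95% interval of the fold from 0.987 to 1.96. The Ddit3 intervals for HCC against control and for HCC/NAC against HCC include both no change and a change of over 1.5-fold.

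Ratios of counts within a library compare 2 genes without any scaling between libraries. Hspa5 had 2.63 reads per Atf4 read in both HCC/NAC libraries, 4.68 and 4.20 in HCC and 9.13 and 7.93 in control libraries. The groups did not overlap, and the mean ratio was 0.308 of control in HCC/NAC and 0.521 of control in HCC livers. With NAC the ratio was 0.592 of its HCC value. The ratio of the chaperone to the transcription factor was thus lower than control in both carcinogen groups whatever the scaling. Atf4 itself had no call in HCC against control under TMM scaling.

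Ddit3 had 0.0586 and 0.0715 reads per Atf4 read in HCC/NAC, 0.0648 and 0.0701 in HCC and 0.0555 and 0.0716 in control libraries. All 3 groups overlapped in this ratio. The group means were 0.0650 in HCC/NAC, 0.0675 in HCC and 0.0636 in control livers. They differed by less than the 2 control libraries did, so the overlap does not show that the ratio was constant. Over the 6 libraries the centred log2 CPM profiles of Atf4 and Ddit3 differed by a root mean square of 0.14, and 291 of the 11873 IDs with a mean of at least 2 CPM lay nearer to Atf4 than Ddit3 did. The other pairs among the 4 genes lay 0.70 to 2.30 apart.

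Atf3 had 1.33 and 1.08 reads per Ddit3 read in HCC/NAC, 1.61 and 1.59 in HCC and 0.1004 and 0.143 in control libraries. The mean ratio was 9.92-fold higher in HCC/NAC than in control and 13.2-fold higher in HCC than in control. With NAC it was 0.753 of the HCC value, and the 2 groups did not overlap. An exact two-sided permutation test of 2 libraries against 2 cannot go below p = 0.333, so the ratios are given as a description.

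**Figure D4:**
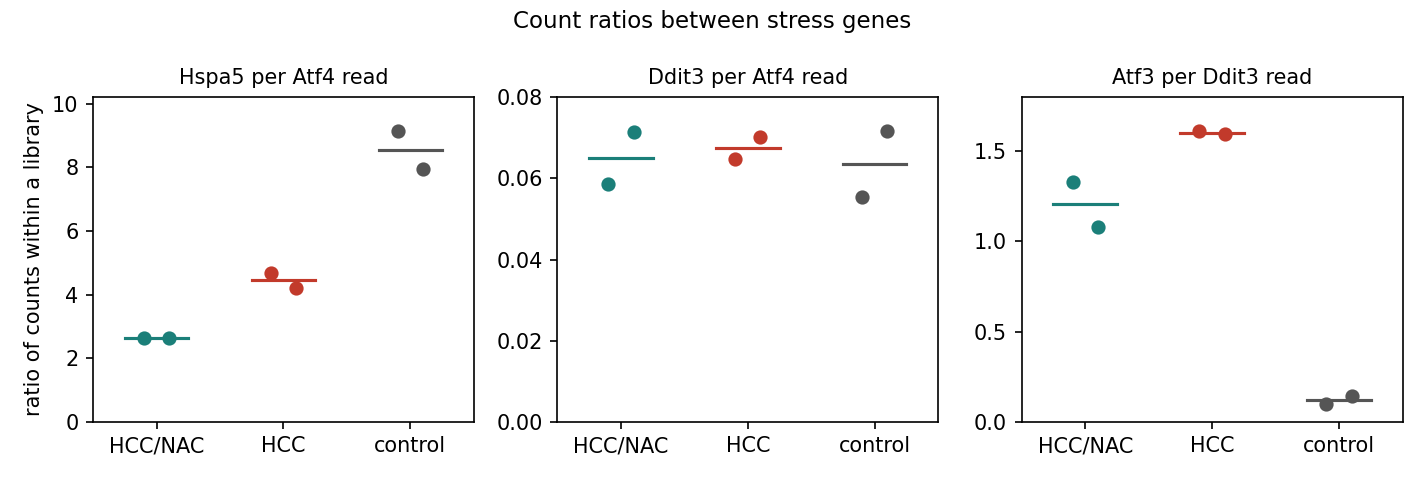
Ratio of counts within each library (y axis, linear from 0) for Hspa5 per Atf4 read, Ddit3 per Atf4 read and Atf3 per Ddit3 read in HCC/NAC, HCC and control livers. Points are libraries and lines are means of 2. The Hspa5 ratio is lowest in HCC/NAC at 2.63, the Ddit3 ratio overlaps in all groups, and the Atf3 ratio is high in both carcinogen groups.

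Likeness to each gene was measured as the root mean square difference of centred log2 CPM over the 6 libraries. The ID nearest to Hspa5 was ENSRNOG00000030418 at 0.023, followed by ENSRNOG00000067532 at 0.036. Their log2 fold changes in HCC against control were -0.83 and -0.93. The IDs nearest to Atf3 were ENSRNOG00000073529 at 0.15 and ENSRNOG00000091363 at 0.18. Their log2 fold changes in HCC against control were 3.76 and 4.12. These IDs were chosen for their likeness over the same 6 libraries and for a call in this comparison, so the directions follow from the choice and are given as a description. The nearest ID lay at 0.014 for Atf4 and at 0.048 for Ddit3. Names of these IDs were not analysed here.

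**Figure D5:**
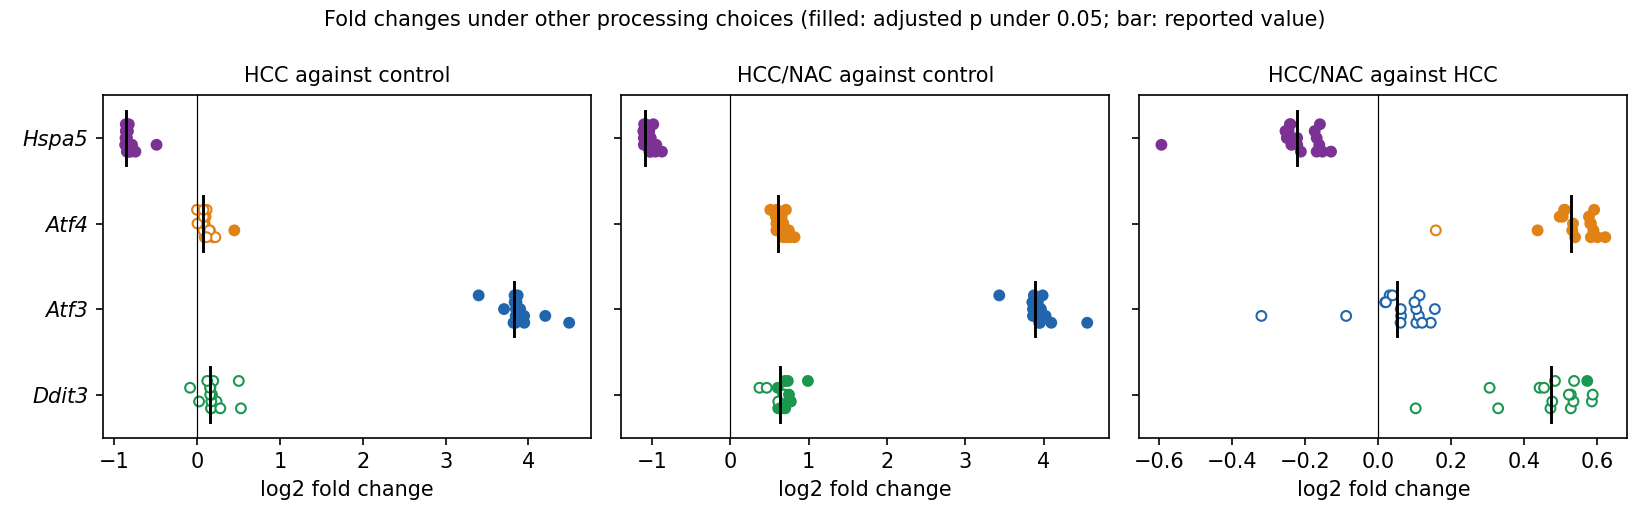
Log2 fold changes (x axis) of the 4 genes (y axis) in the 3 comparisons under 17 other processing choices (16 for Ddit3), each a point, filled where the adjusted p is under 0.05; the bar is the reported value. Hspa5 stays below 0 and filled throughout, Atf3 stays above 3 against control, and the Atf4 points of HCC against control run from -0.00086 to 0.45.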

How the data were processed

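The authors deposited 1 table of raw counts for each of 6 liver libraries, keyed by Ensembl gene ID. STAR alignments were the input of the counting, per the file headers. FastQC, featureCounts and edgeR are also named, per the submitters' processing notes. Poly(A) selection is given by the labels' protocols, which call the animals mice although the organism label says rat. Not given in the sources used here: versions, build, annotation, strand setting and the treatment of reads shared with related or overlapping genes. The authors' counts carry no molecular identifiers. The Poisson intervals treat every read as independent and cover no spread between pools. An estimate from drop-out gave 5.32 to 16.6 reads per molecule, so these intervals may be too narrow.

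IDs were kept by filterByExpr, scaled by TMM and fitted with edgeR 4.0.16 in R 4.3.3 (glmQLFit, glmQLFTest, a mean per group, 3 residual degrees of freedom). Standard errors came from the F statistic. Alternatives used DESeq2 1.42.0, limma 3.58.1, other scalings, filters and left-out libraries. The code was tested on simulated data. The 4 genes and all lists were chosen with earlier results of these data known. Named are all 4 genes, and the IDs most like them with a call in HCC against control, at most 2 risen and 2 fallen, nearest first. Lists of other pathway genes and of cell type markers could not be used, since 0 of the IDs are paired with symbols in the reference table of 47357 genes. Promoter sequences are from RefSeq (GRCr8), matched by symbol for 3 of the 4 genes.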

Additional observations from a re-analysis of the deposited data

How the results depend on the processing

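Under 17 alternatives, 197 of 201 values of the 4 genes kept their direction and 188 kept both direction and side of the threshold. Hspa5 kept its fall in all 3 comparisons and Atf3 its rise against control under every alternative run. With control replicate 1 left out, the log2 fold changes in HCC against control turned sign for Atf4 (-0.00086) and Ddit3 (-0.084); over all left-out libraries they ranged from -0.00086 to 0.22 for Atf4 and from -0.084 to 0.50 for Ddit3. Atf3 in HCC/NAC against HCC ranged from -0.088 to 0.16 and was negative without HCC replicate 1. Ddit3 in HCC/NAC against control ranged from 0.37 to 0.99 over left-out libraries and was 0.67 without a call in a fit of the compared groups only. Ddit3 in HCC/NAC against HCC was called at 0.57 with counts divided by estimated reads per molecule. Atf4 in HCC against control was called at 0.20 when only IDs averaging 10 CPM or more were fitted and at 0.45 with library totals only. With library totals only, in HCC/NAC against HCC, Atf4 had no call at 0.16 and Atf3 turned to -0.32. The cause of these changes was not tested. The number of all IDs called in HCC/NAC against HCC ranged from 3093 to 5075 over left-out libraries, lowest without HCC replicate 1, beside 4686 as reported; 50 of 51 such counts lay within 1.5 times of the reported one. The median log2 fold change of all IDs in HCC against control was 0.05 as reported, 0.13 under upper-quartile scaling and 0.43 with library totals only; in HCC/NAC against control it was 0.05, 0.19 and 0.05. A library left alone in its group was assumed to vary like the others. The filter at a mean CPM of 10 left Ddit3 untested. With the replicate number as a block no call of the 4 genes changed (Ddit3 in HCC/NAC against control 0.64, adjusted p = 0.0183, edgeR), and the IDs called numbered 5982 in HCC against control, 7650 in HCC/NAC against control and 4861 in HCC/NAC against HCC; deviations of same-numbered libraries correlated across IDs with r = 0.0028 to 0.012, so the numbers were not taken to pair the libraries.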
